A study of Mus musculus with 12 samples.

Results

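The 10 genes described here belong to the programs of T cell quiescence and of the central, lymphoid state of regulatory T cells (Treg), namely Klf2, S1pr1, Tcf7, Lef1, Satb1, Il7r, Foxo1, Foxp1, Bach2 and Id3. They were taken by name from the gene tables, and all 10 of them were found among the 41457 genes listed. The study asked what Treg do without CD18, the β2-integrin chain encoded by Itgb2. RFP+CD4+ cells were sorted from the spleen of CD18Foxp3 mice (CD18 fl/fl Foxp3Cre) and of CD18wt littermates (CD18 wt/wt Foxp3Cre), which carry the same Cre and the RFP reporter at the ROSA26 locus. Cre is expressed from the Foxp3 locus, so the deletion is restricted to cells that express or have expressed Foxp3, and the age of the mice sampled was not given in the sources used here. The paper reports that CD18Foxp3 mice develop inflammation of the skin and internal organs and enlarged spleens. Whether the mice sampled for RNA were affected was not given. Its part in the genotype comparisons below was not tested. Sorted cells were kept overnight in recombinant human IL-2 at 5 U/ml (unstimulated), or with agonistic anti-CD3 at 1 µg/ml and anti-CD28 at 2 µg/ml as well (stimulated). Each of the 4 groups had 3 poly(A) RNA libraries, labelled as biological replicates.

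Resting T cells are held in a quiescent state by transcription factors that are switched off after antigen receptor signaling. Foxo1 is kept in the nucleus while PI3K and Akt signaling is low, and it drives Klf2 and Il7r. Klf2 in turn drives S1pr1, the sphingosine-1-phosphate receptor with which lymphocytes leave lymphoid organs. Tcf7 (TCF-1), Lef1, Satb1, Bach2, Foxp1 and the E protein inhibitor Id3 are nuclear regulators that mark naive, central or stem-like T cells, and in Treg several of them oppose the effector program. On GRCm38 the genes lie on chromosomes 8 (Klf2), 3 (S1pr1, Lef1 and Foxo1), 11 (Tcf7), 17 (Satb1), 15 (Il7r), 6 (Foxp1) and 4 (Bach2 and Id3), with spans from 2259 bases for Id3 to 597384 bases for Foxp1.

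Libraries held between 10665174 and 19005482 exon reads. Replicate 3 of unstimulated CD18wt Treg was the shallowest and had the lowest share of gene reads over introns, 3.32%, against a highest of 5.99%. Without it 8 of the 10 genes were still called on stimulation in CD18wt Treg and 0 for genotype in unstimulated cells. Over all genes, 3843 were then called on stimulation, against 4013 with it, and 44 for genotype, against 16. The summed level of 9 Treg markers was between 2840 and 4931 TPM (a transcript level per length, scaled to a fixed total), and Foxp3 was between 73.4 and 207 TPM. The sum of 8 B cell markers was 33.9 to 39.3 TPM in unstimulated CD18wt, 27.4 to 35.4 TPM in unstimulated CD18Foxp3, 10.9 to 21.6 TPM in stimulated CD18wt and 9.66 to 13.5 TPM in stimulated CD18Foxp3 libraries. Most of it was Cd79b, at 8.17 to 29.2 TPM, while Pax5, a transcription factor that defines B cells, was at most 0.556 TPM. The B cell markers called lower on stimulation were 3 of 4 tested in CD18wt and 2 of 2 in CD18Foxp3 Treg. Over all genes 14.9% and 17.6% were called lower. Markers that did not pass the count filter were not tested. The sum of 8 cytotoxic markers was 86.6 to 110 TPM in unstimulated CD18wt and 117 to 164 TPM in unstimulated CD18Foxp3 libraries, without overlap, and 95.2 to 148 TPM and 116 to 137 TPM after stimulation. Of these markers 3 of 5 tested in CD18wt and 4 of 6 in CD18Foxp3 Treg were called lower on stimulation, against the same 14.9% and 17.6%. Between genotypes 0 were called, where 0.135% of all genes were in unstimulated and 0.0% in stimulated cells. Klrb1c (NK1.1) was 3.73 to 5.32 and 1.58 to 2.71 TPM in unstimulated CD18wt and CD18Foxp3 libraries and at most 0.243 TPM in stimulated ones. Prf1 (perforin) was 7.69 to 18.3 TPM before and 0.809 to 2.95 TPM after stimulation. Ncr1 was at 0 in every library and Cd8a was at most 1.21 TPM. The largest part of the sum was Nkg7, which was not called on stimulation. Its mean was 57.5 ± 6.53 TPM (SD) before and 99.5 ± 31.0 TPM after stimulation in CD18wt Treg. In CD18Foxp3 Treg it was 80.4 ± 22.1 and 101 ± 4.81 TPM. Cd8b1, called lower in both genotypes, went from 25.0 to 15.7 TPM in CD18wt and from 27.3 to 20.8 TPM in CD18Foxp3 Treg. The sum of 9 myeloid markers was 5.94 to 19.99 TPM, and that of 6 erythroid markers was 0.234 to 32.8 TPM, highest in unstimulated CD18Foxp3 replicate 2. The part of such cells in the results below was not tested. Itgb2 checked the labels. It was 387 to 465 TPM in unstimulated CD18wt and 229 to 257 TPM in unstimulated CD18Foxp3 Treg, and 329 to 331 TPM against 131 to 202 TPM after stimulation, without overlap in either culture. Its log2 fold change was -0.85 (edgeR, SE 0.09, adjusted p = 0.0041) in unstimulated and -0.94 (SE 0.17, adjusted p = 0.216) in stimulated cells.

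Promoters are shown for Klf2, Satb1 and Foxo1, 3 of the genes that fell on stimulation, whose RefSeq start lies within 29 bases of the start of the deposited gene. That of Tcf7 does too and is described below by its motif match alone. The Tcf7 window holds an ATG whose reading frame has no stop up to the end of the window. Its motif match lies in that frame, so it may be coding sequence of a longer transcript and not promoter. Each line gives the 250 bases before that start, 5′ to 3′ along the gene, from RefSeq on GRCm38.p6, in lower case with motif matches in capitals.
Klf2, chr8:72318812-72319061, plus strand: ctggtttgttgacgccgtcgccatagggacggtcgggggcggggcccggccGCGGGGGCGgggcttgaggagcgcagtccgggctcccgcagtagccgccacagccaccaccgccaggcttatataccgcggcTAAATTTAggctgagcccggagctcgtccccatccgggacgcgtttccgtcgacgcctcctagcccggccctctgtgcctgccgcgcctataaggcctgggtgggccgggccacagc
Satb1, chr17:51833291-51833540, minus strand: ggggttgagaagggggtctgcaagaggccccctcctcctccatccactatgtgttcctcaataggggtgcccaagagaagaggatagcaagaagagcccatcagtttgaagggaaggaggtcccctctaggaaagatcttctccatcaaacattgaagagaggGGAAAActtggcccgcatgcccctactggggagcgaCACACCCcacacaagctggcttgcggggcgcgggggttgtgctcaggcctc
Foxo1, chr3:52268087-52268336, plus strand: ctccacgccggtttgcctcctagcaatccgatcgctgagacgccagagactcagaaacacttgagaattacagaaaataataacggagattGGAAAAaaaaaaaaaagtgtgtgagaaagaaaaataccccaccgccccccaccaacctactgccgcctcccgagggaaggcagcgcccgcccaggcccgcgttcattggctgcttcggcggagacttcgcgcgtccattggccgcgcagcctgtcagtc
The Klf2 window holds GCGGGGGCG (EGR) at position -199 from the start site and the palindrome TAAATTTA (MEF2) at -117. Satb1 holds GGAAAA (NFAT) at -87 and CACACCC (KLF) at -51, and Foxo1 holds GGAAAA at -159.

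In all, 10 motifs were searched on both strands, and no motif's letters lie within those of another. RefSeq had a window for 9 of the 10 genes. Matches in the window nearest to the deposited gene start were found for GGAAAA in 3 of 9 (Satb1, Il7r and Foxo1; 20.4% of the 32536 distinct mouse windows of the same length), for CACACCC in 2 of 9 (Satb1 and Id3; 6.95%) and for GCGGGGGCG in 2 of 9 (Klf2 and Tcf7; 2.6%). None of the 9 held TGTTTAC (FOXO, 3.17%), CTTTGAT (TCF/LEF, 3.21%), CACCTG (E box, 17.3%), TGAGTCA (AP-1/BACH, 4.45%) or TGACGTCA (CRE, 1.56%). The letters of MEF2 and of ETS, ACTTCCTG, were added after the windows had been read, so their matches were picked by eye: TAAATTTA in Klf2 only (0.504% of windows) and ACTTCCTG in Il7r only (2.7%). The Il7r, Id3, Foxp1 and Bach2 windows lie inside the span of the deposited gene, so these are not printed. The nearest Foxp1 start lies 1728 bases and the nearest Bach2 start 178631 bases from the deposited start. These windows are still counted among the 9 searched. The Tcf7 match may lie in coding sequence, as given above. A match describes letters and is not evidence that a factor binds there.

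In unstimulated CD18wt Treg the level per length, in TPM, ran from Tcf7 (mean 973 ± 110 SD, n = 3) through Klf2 (551 ± 187), S1pr1 (326 ± 36.4), Il7r (175 ± 39.3), Foxo1 (97.0 ± 4.29), Id3 (83.2 ± 13.1), Lef1 (51.1 ± 7.34), Foxp1 (41.1 ± 3.03) and Satb1 (40.6 ± 5.47) to Bach2 (14.3 ± 2.67). Neighbors in that order did not overlap between libraries, except Lef1 with Foxp1 and Foxp1 with Satb1. In stimulated CD18wt Treg Tcf7 was still first, at 451 ± 74.5 TPM, and every later neighbor overlapped the next apart from Id3 with Foxp1. The 10 genes together made up 2014 to 2714 TPM in the 6 unstimulated libraries and 671 to 1159 TPM in the 6 stimulated ones.

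**Figure D1:**
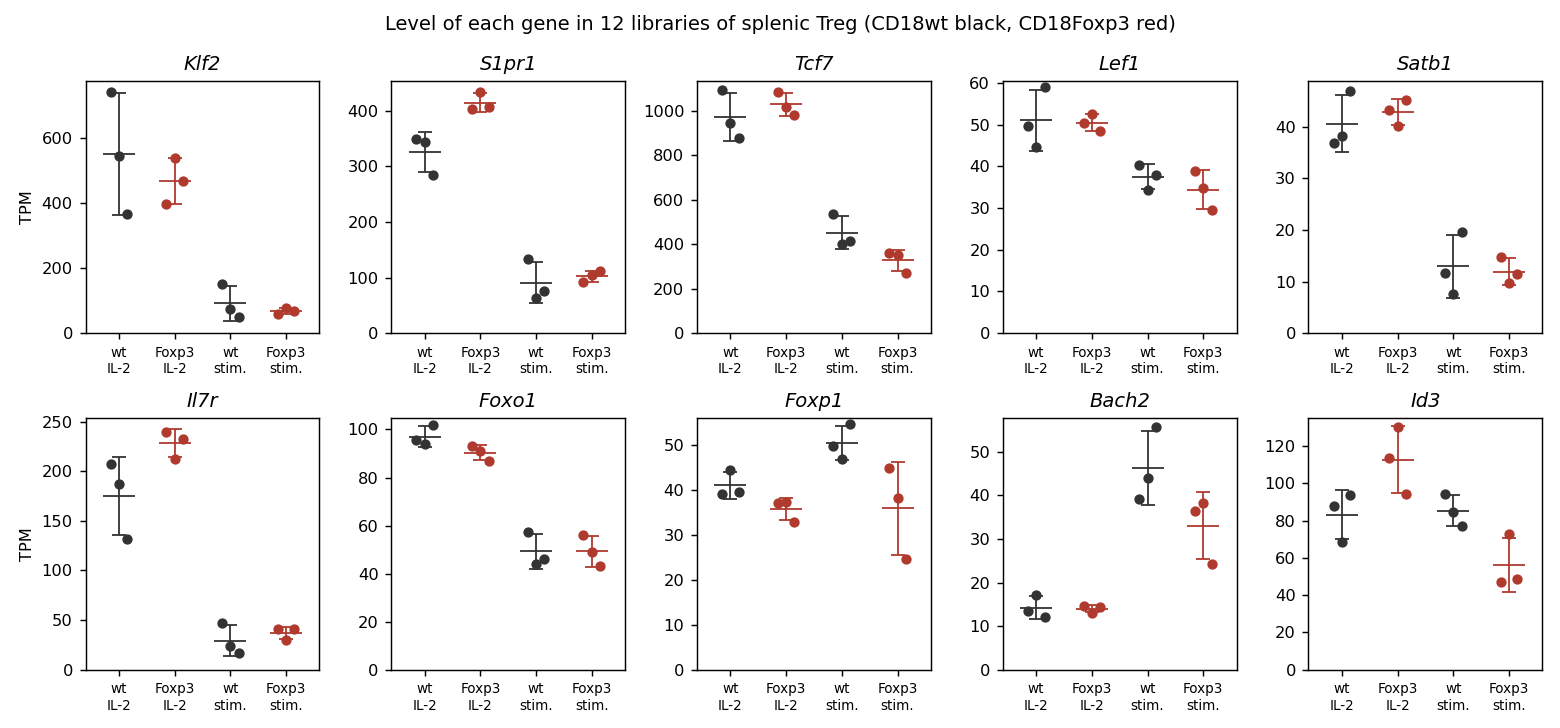
TPM (y axis, from 0, a separate scale for each gene) of the 10 genes in the 12 libraries, with CD18wt in black and CD18Foxp3 in red, IL-2 alone on the left and anti-CD3 with anti-CD28 (stim.) on the right of each panel. Points are libraries, and bars are the mean ± SD of 3. Klf2, S1pr1, Tcf7, Lef1, Satb1, Il7r and Foxo1 are lower in every stimulated library, and Bach2 is higher.

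Stimulation lowered most of the 10 genes in both genotypes. A gene was called changed at a fold of at least 1.5 and an adjusted p up to 0.01 (edgeR quasi-likelihood test, Benjamini-Hochberg over all genes tested). In CD18wt Treg 8 of 10 were called, 7 lower and Bach2 higher, where 33.6% of all 11930 genes tested were called, 14.9% lower and 18.7% higher. In CD18Foxp3 Treg 9 of 10 were called, 8 lower and Bach2 higher, where 38.6% of 12019 genes were called, 17.6% lower and 20.9% higher. TPM did not overlap between unstimulated and stimulated libraries for 9 of the 10 genes in each genotype, where that held for 62.0% and 67.1% of all genes. The median log2 fold change of the 10 was -1.45 in CD18wt and -1.70 in CD18Foxp3 Treg, against 0.02 and 0.01 over all genes tested. The 10 genes, and the lists set beside them below, were chosen with earlier results of these data known. Their counts beside the shares over all genes therefore describe them and are not a test. Libraries are a mean over cells, so fewer cells with a transcript and less transcript per cell cannot be told apart. The B cell and cytotoxic markers given above that were called fell in the same comparisons, and their part was not tested.

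Klf2, the Krüppel-like factor of quiescence and egress, fell by about as much as Il7r. It was 741, 544 and 367 TPM in unstimulated CD18wt libraries and 150.2, 74.6 and 48.6 TPM in stimulated ones, and 398, 539 and 469 TPM against 57.3, 76.8 and 66.6 TPM in CD18Foxp3 Treg. No stimulated library reached an unstimulated one. The log2 fold change was -2.99 (SE 0.50, adjusted p = 0.0046) in CD18wt, a 7.96-fold decrease, and -3.18 (SE 0.16, adjusted p = 1.4e-06) in CD18Foxp3, a 9.05-fold decrease. These folds are of counts scaled in edgeR, whereas mean TPM was lower by 6.04-fold and 7.01-fold. In CD18wt the call was lost without unstimulated replicate 1 (adjusted p = 0.014), unstimulated replicate 2 (0.018) or stimulated replicate 2 (0.033), and the fold change without unstimulated replicate 3 was -3.19.

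S1pr1, the egress receptor downstream of Klf2, was 350, 343 and 284 TPM before and 133, 62.5 and 76.3 TPM after stimulation of CD18wt Treg. In CD18Foxp3 Treg it was 403, 435 and 407 TPM and then 91.2, 104 and 111 TPM. The groups were apart in both genotypes, with log2 fold changes of -2.26 (SE 0.23, adjusted p = 1.5e-05) and -2.39 (SE 0.11, adjusted p = 1.3e-06). Of 9 tested genes out of 11 that act in recirculation, 6 fell and 0 rose in CD18wt, and 5 fell and 0 rose in CD18Foxp3 Treg, where 14.9% and 17.6% of all genes fell. Among them was Itgb7 (integrin β7), with log2 fold changes of -1.82 (adjusted p = 2.9e-06) in CD18wt and -2.24 (adjusted p = 0.00011) in CD18Foxp3 Treg.

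Il7r, the IL-7 receptor α chain that sustains resting T cells, was 208, 187 and 132 TPM in unstimulated and 46.6, 24.2 and 17.2 TPM in stimulated CD18wt libraries. The CD18Foxp3 libraries had 240, 213 and 232 TPM and then 40.6, 30.0 and 40.9 TPM. Its log2 fold change was -2.98 in both genotypes (SE 0.39, adjusted p = 8.3e-04 and SE 0.16, adjusted p = 1.9e-06), and unstimulated and stimulated libraries did not overlap. All 12 genes listed for IL-7 and IL-2 receptor signaling were tested, of which 5 fell and 4 rose in CD18wt and 6 fell and 4 rose in CD18Foxp3 Treg, where 33.6% and 38.6% of all genes were called. Jak1, the kinase bound to the Il7r chain, changed by -1.21 and -1.22 on the log2 scale. Il2ra, the high-affinity IL-2 receptor chain, rose by 2.27 and 3.13, from 153 ± 18.5 to 980 ± 132 TPM in CD18wt and from 122 ± 13.2 to 1372 ± 203 TPM in CD18Foxp3 Treg. Cish, a feedback inhibitor of this signaling, rose by 1.80 in CD18wt, and Socs1, another one, by 1.94 in CD18Foxp3 Treg.

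Foxo1, which sits upstream of these genes, was 95.4, 93.8 and 102 TPM in unstimulated and 57.4, 44.1 and 46.2 TPM in stimulated CD18wt Treg. Corresponding CD18Foxp3 values were 93.0, 91.0 and 87.0 TPM and 56.0, 49.1 and 43.1 TPM. The libraries were again apart, with log2 fold changes of -1.39 (SE 0.14, adjusted p = 4.9e-06) and -1.23 (SE 0.13, adjusted p = 5.2e-05). Among 12 other forkhead and Krüppel-like factors, 3 fell in CD18wt and 7 in CD18Foxp3 Treg, and 0 rose in either. Over all genes 14.9% and 17.6% fell and 33.6% and 38.6% were called in either direction, so the CD18wt count is not a result about these relatives. Klf3 was called in both genotypes (-2.25 and -2.50), Klf13 in CD18wt (-1.29), and Klf4 in CD18Foxp3 Treg (-2.83).

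Foxp1, a forkhead factor of naive T cells, was not called. It was 39.1, 44.6 and 39.6 TPM and then 49.9, 47.0 and 54.7 TPM in CD18wt, and 37.1, 37.4 and 33.0 TPM and then 45.0, 38.3 and 24.7 TPM in CD18Foxp3 Treg. TPM was thus higher in each stimulated CD18wt library, while the log2 fold change of the counts was -0.10 (95% interval -0.37 to 0.16, adjusted p = 0.508) with TMM scaling, under which the median of all genes was 0.02. On log2(TPM + 1) the change of Foxp1 was 0.29 and that median was 0.36. In CD18Foxp3 Treg the log2 fold change was -0.36 (interval -0.81 to 0.10, adjusted p = 0.164).

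Tcf7, the gene of TCF-1 and the most abundant of the 10, was 1094, 948 and 879 TPM in unstimulated and 537, 401 and 416 TPM in stimulated CD18wt Treg. In CD18Foxp3 Treg it was 1086, 1019 and 983 TPM before and 359, 351 and 271 TPM after stimulation. Its log2 fold change was -1.51 (SE 0.15, adjusted p = 4.6e-06) and -2.02 (SE 0.14, adjusted p = 5.1e-06).

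Lef1, the relative of Tcf7 with the same DNA-binding domain, was 49.6, 44.6 and 59.0 TPM and then 40.3, 34.4 and 37.9 TPM in CD18wt, and 50.4, 52.7 and 48.5 TPM and then 38.9, 34.9 and 29.6 TPM in CD18Foxp3 Treg. The change was -0.85 (SE 0.15, adjusted p = 3.9e-04) and -0.92 (SE 0.13, adjusted p = 3.4e-04). It was smaller on log2(TPM + 1), -0.43 and -0.55, and was then not called in either genotype. Of the Tcf7 and Lef1 partners listed, 11 were tested in CD18wt (3 fell, 1 rose) and 10 in CD18Foxp3 Treg (5 fell, 1 rose). With 33.6% and 38.6% of all genes called, the CD18wt count is near that of any genes and says nothing particular about these partners. Axin2, a target and inhibitor of β-catenin signaling, fell (-1.26 and -1.42), Bcl9l, a β-catenin cofactor, fell (-1.09 and -1.64), and its relative Bcl9 rose by 0.92 and 0.62.

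Satb1, a chromatin organizer of T cells, was 36.8, 38.2 and 46.9 TPM in unstimulated and 11.6, 7.63 and 19.6 TPM in stimulated CD18wt Treg. CD18Foxp3 libraries had 43.3, 40.1 and 45.3 TPM and then 14.8, 9.63 and 11.4 TPM. Stimulated libraries were all lower, with a log2 fold change of -2.08 (SE 0.30, adjusted p = 5.8e-04) and -2.21 (SE 0.17, adjusted p = 1.0e-05).

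Bach2, a repressor that restrains effector differentiation, was the single gene of the 10 that rose. It was 13.6, 17.2 and 12.04 TPM and then 39.2, 44.1 and 55.6 TPM in CD18wt, and 14.6, 13.0 and 14.4 TPM and then 36.5, 38.4 and 24.2 TPM in CD18Foxp3 Treg. Every stimulated library lay above every unstimulated one. The log2 fold change was 1.30 (SE 0.16, adjusted p = 2.2e-05) in CD18wt and 0.87 (SE 0.17, adjusted p = 0.0020) in CD18Foxp3, where it missed the threshold without unstimulated replicate 2 (adjusted p = 0.013) or replicate 3 (0.011). Of 7 tested partners and targets of Bach2, 3 rose and 0 fell in each genotype, where 18.7% and 20.9% of all genes rose and 33.6% and 38.6% were called, so the count of calls is near that over all genes. Mafg, a partner of Bach proteins, rose by 1.44 and 1.38, and Hmox1, a target that they repress, rose by 1.22 and 1.96.

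Id3, the inhibitor of E proteins, was 87.6, 68.4 and 93.5 TPM and then 94.0, 84.8 and 77.1 TPM in CD18wt Treg, with overlap. In CD18Foxp3 Treg it was 114, 130.2 and 94.1 TPM and then 47.0, 73.0 and 48.8 TPM, without overlap. The log2 fold change was -0.37 (SE 0.17, adjusted p = 0.086) in CD18wt and -1.37 (SE 0.19, adjusted p = 2.8e-04) in CD18Foxp3 Treg, so that it was called in CD18Foxp3 Treg. Its sign in CD18wt turned to 0.04 on log2(TPM + 1). None of the E and Id proteins tested, 5 in CD18wt and 4 in CD18Foxp3 Treg, was called in edgeR. Over all genes 33.6% and 38.6% were called.

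**Figure D2:**
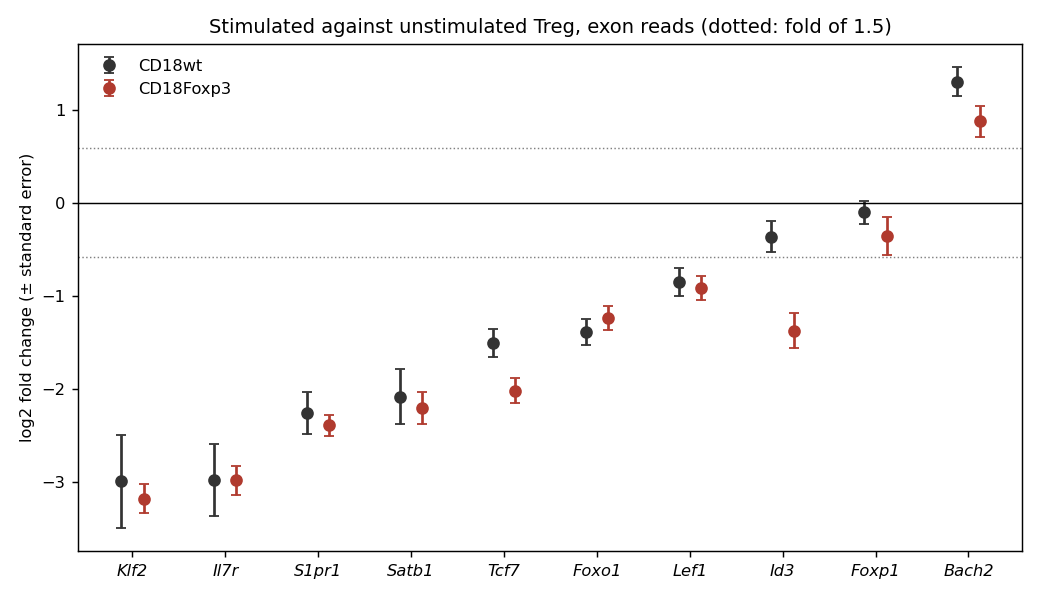
Log2 fold change of exon counts, stimulated against unstimulated (y axis, edgeR), of the 10 genes (x axis) in CD18wt (black) and CD18Foxp3 (red) Treg, with bars for the standard error and dotted lines at a fold of 1.5. Klf2 and Il7r lie near -3, Foxp1 lies within the dotted lines in both genotypes, and Bach2 is the gene above 0.

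Other gene lists, also chosen with earlier results of these data known, are given beside these values as description and not as a test. All 15 other quiescence genes were tested, of which 11 fell and 1 rose in CD18wt and 12 fell and 1 rose in CD18Foxp3 Treg, where 14.9% and 17.6% of all genes fell. Tsc22d3 (GILZ, a Foxo target) changed by -4.33 and -4.01 and Pik3ip1 (an inhibitor of PI3K) by -4.23 and -4.38, whereas Myb rose by 3.19 and 3.93. Of 12 effector genes, 6 rose and 2 fell in CD18wt, and 6 rose and 0 fell in CD18Foxp3 Treg, where 18.7% and 20.9% of all genes rose. Irf4, an antigen receptor target needed by effector Treg, rose by 3.67 and 3.94, and Ezh2, a histone methyltransferase of activated Treg, by 2.19 and 2.65. In CD18wt, Itgae (integrin αE) changed by -1.74 and Maf by -1.46. The median of these 12 was 0.20 and 0.59.

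Reads over introns come largely from RNA that is not yet spliced and were not part of the exon counts. In CD18wt Treg 7 of the 10 genes were called on intron reads, all lower, where 7.8% of 9492 genes were called and 5.09% were called lower, and in CD18Foxp3 Treg 8 of 10 were called, all lower, where 30.4% of 10260 genes were called and 15.4% were called lower. The CD18wt count was 6 without unstimulated replicate 3, and it fell to 3 without unstimulated replicate 2, stimulated replicate 2 or stimulated replicate 3, to 4 without replicate 1 of either culture, and to 3 with the replicate number as a block. Calls over all genes moved too, from 257 higher and 483 lower with every library. Without unstimulated replicates 1, 2 and 3 in turn they were 106 and 292, 147 and 329, and 397 and 663. Without stimulated replicates 1, 2 and 3 in turn they were 78 and 167, 66 and 252, and 44 and 115. With the block they were 50 and 138. Id3 had at most 9 intron reads in any library and could not be tested.

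Klf2 had 754, 651 and 84 intron reads in unstimulated and 0, 6 and 27 in stimulated CD18wt libraries, and 392, 528 and 540 against 10, 10 and 17 in CD18Foxp3 Treg. The log2 fold change of intron reads was -5.90 (SE 0.88, adjusted p = 0.0041) and -5.86 (SE 0.28, adjusted p = 2.1e-18), against -2.99 and -3.18 for exon reads. Satb1 intron reads changed by -2.94 and -3.00 and those of Il7r by -2.54 and -2.62.

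For Bach2 the readouts differed. Its exon counts rose, whereas its intron reads changed by -0.10 (SE 0.36, adjusted p = 0.888) in CD18wt and -0.46 (SE 0.16, adjusted p = 0.020) in CD18Foxp3 Treg, neither of them called. Foxp1 exon counts were not called, while its intron reads changed by -1.21 (SE 0.34, adjusted p = 0.020, not called) in CD18wt and by -1.23 (SE 0.17, adjusted p = 1.8e-08) in CD18Foxp3 Treg.

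The share of a gene's own reads that lay over introns was then read within each library. For Bach2 it was 29.9%, 28.8% and 38.6% in unstimulated and 16.9%, 20.7% and 19.6% in stimulated CD18wt libraries, and 38.9%, 36.6% and 35.3% against 23.1%, 22.9% and 23.5% in CD18Foxp3 Treg. The highest of the unstimulated CD18wt values came from replicate 3, the library with the lowest intron share overall. An exact two-sided permutation of stimulation labels within each genotype, added after the fits had been seen, was run on 9 genes, and 0.005 is the smallest p it can give. In this exact test the share fell for Bach2 and Foxp1 and rose for Il7r (each p = 0.005, adjusted p = 0.015). By the same exact test it fell for Klf2 (p = 0.01, adjusted p = 0.0225) and rose for Tcf7 (p = 0.02, adjusted p = 0.036). The Klf2 shares overlapped in CD18wt Treg, with 5.51% in stimulated and 2.96% in unstimulated replicate 3. No share was corrected for that of the whole library. In CD18wt Treg the latter was 4.81%, 5.02% and 3.32% before and 5.47%, 3.66% and 5.99% after stimulation. In CD18Foxp3 Treg it was 4.97%, 4.82% and 4.75%, then 5.76%, 5.69% and 4.75%. Its part was not tested. Lef1 (adjusted p = 0.075), Satb1 (0.129), S1pr1 (0.647) and Foxo1 (0.865) did not pass 0.05. With each library left out in turn, the adjusted p of this exact test stayed between 0.015 and 0.0338 for Bach2, Foxp1, Il7r and Klf2. That of Tcf7 ranged from 0.0225 to 0.09 and missed 0.05 without any 1 of 7 libraries, unstimulated CD18wt replicate 3 (0.0771) among them, and that of Lef1 ranged from 0.045 to 0.195. Tcf7 intron reads were mostly not uniquely placed, with 105 unique of 908 in unstimulated CD18wt replicate 1, so its intron values are uncertain. The protocol is not stated to keep strand, and antisense genes overlap Tcf7, Lef1, Foxo1 and Bach2, the most read of which had at most 114 exon reads.

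**Figure D3:**
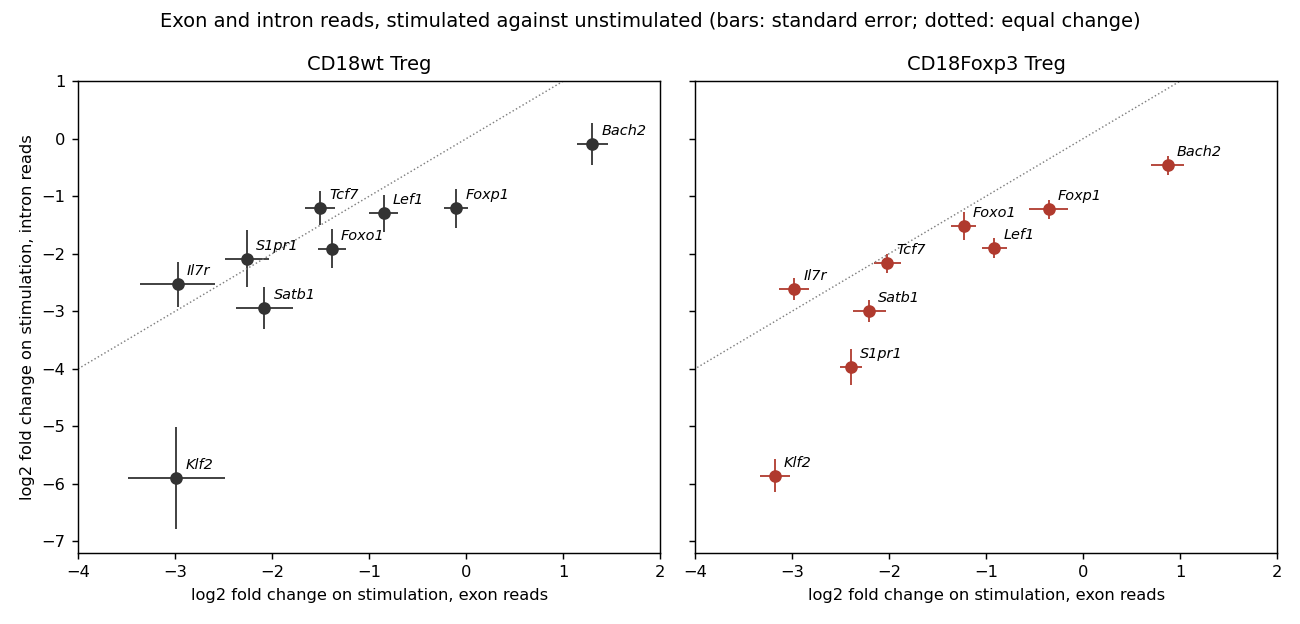
Log2 fold change on stimulation of intron reads (y axis) against exon reads (x axis) for 9 genes in CD18wt (left) and CD18Foxp3 (right) Treg, with bars for the standard error and a dotted line of equal change. Klf2 lies far below the line in both genotypes, and Bach2 lies below it with a positive exon change and an intron change near or under 0.

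Between the genotypes none of the 10 genes was called. In unstimulated Treg 0 of the 10 were called, where 0.135% of 11829 genes were called in edgeR, and 4 of them (S1pr1, Il7r, Id3 and Foxp1) had an unadjusted p under 0.05, where 9.59% of all genes did. In stimulated Treg 0 of 10 were called, where 0.0% of 11930 genes were called, and Tcf7, Foxp1, Bach2 and Id3 had an unadjusted p under 0.05, where 4.89% of all genes did. DESeq2 called 0 of the 10 in both cultures as well, where it called 86 genes in unstimulated and 22 in stimulated Treg over all genes tested. With so few calls, 0 of 10 is near that over all genes. Libraries of the genotypes did not overlap in TPM for 5 of 10 genes in unstimulated cells, 3 higher in CD18Foxp3 and 2 lower, where 15.6% of all genes did not overlap (8.74% higher, 6.9% lower), and for 4 of 10 in stimulated cells, all lower, where 9.43% did not (4.41% lower). With 3 libraries against 3 the exact permutation test of a single gene cannot go below p = 0.1.

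In unstimulated cells the receptors S1pr1 and Il7r were higher in each CD18Foxp3 library. S1pr1 was 403 to 435 TPM against 284 to 350 TPM, a log2 fold change of 0.33 (SE 0.09, 95% interval 0.13 to 0.53, adjusted p = 0.193), and 0.27 (adjusted p = 0.0956) without unstimulated CD18wt replicate 3. Il7r was 213 to 240 TPM against 132 to 208 TPM, a log2 fold change of 0.36 (SE 0.13, interval 0.08 to 0.64, adjusted p = 0.354), and 0.22 (adjusted p = 0.214) without that replicate. The sum of the cytotoxic markers was likewise higher in each unstimulated CD18Foxp3 library, and their part was not tested. The markers did not move together. Of the 6 tested, Nkg7 (80.4 ± 22.1 against 57.5 ± 6.53 TPM), Prf1, Gzma and Cd8b1 had a higher mean. Klrb1c and Eomes had a lower one. Foxo1 (-0.13) and Foxp1 (-0.22) were lower in each CD18Foxp3 library, by less than the fold of 1.5. Klf2 had the widest interval, -0.82 to 0.33, around -0.25.

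After stimulation Tcf7, Foxp1, Bach2 and Id3 were each lower in every CD18Foxp3 library than in every CD18wt library. Tcf7 was 271 to 359 TPM against 401 to 537 TPM (log2 fold change -0.45, SE 0.17, adjusted p = 0.916) and Bach2 was 24.2 to 38.4 TPM against 39.2 to 55.6 TPM (-0.48, SE 0.20, adjusted p = 0.951). Foxp1 was 24.7 to 45.0 TPM against 47.0 to 54.7 TPM (-0.47, SE 0.20, adjusted p = 0.973). None of these passed the threshold. Only the intervals of Lef1 (-0.45 to 0.23) and Foxo1 (-0.34 to 0.38) stayed within a fold of 1.5 in both directions. Those of all the other genes include changes past that fold in at least 1 direction. Among them were Klf2 (-1.20 to 0.33), Satb1 (-0.69 to 0.53), Il7r (-0.34 to 1.06), S1pr1 (-0.31 to 0.70) and Id3 (-1.02 to -0.18). For these genes differences of that size are not settled by 3 libraries a group.

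Id3 was the gene of the 10 for which libraries of the genotypes were apart in both cultures but in opposite directions. CD18Foxp3 libraries had 94.1 to 130.2 TPM against 68.4 to 93.5 TPM in IL-2 alone (log2 fold change 0.42, SE 0.16, adjusted p = 0.436) and 47.0 to 73.0 TPM against 77.1 to 94.0 TPM after stimulation (-0.60, SE 0.19, adjusted p = 0.813). In IL-2 alone the groups were apart by the gap between 94.1 TPM and 93.5 TPM, the latter in unstimulated CD18wt replicate 3, without which the log2 fold change was 0.54 (adjusted p = 0.232). The interaction of genotype and stimulation was -1.01 on the log2 scale (SE 0.27, adjusted p = 0.894 over 12636 genes in edgeR), so it did not pass the threshold, and it was -1.15 (adjusted p = 0.992) without that replicate. Over all genes 0 interactions were called (0.0%), and 3.84% had an unadjusted p under 0.05, as had Tcf7 (-0.52, SE 0.20) and Id3 among the 10. With no filter on low counts Id3 had an adjusted p of 0.0047 in edgeR, in a fit that called 31 interactions over all genes. Its adjusted p ranged from 0.0047 to 0.988 over the settings that kept every library.

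**Figure D4:**
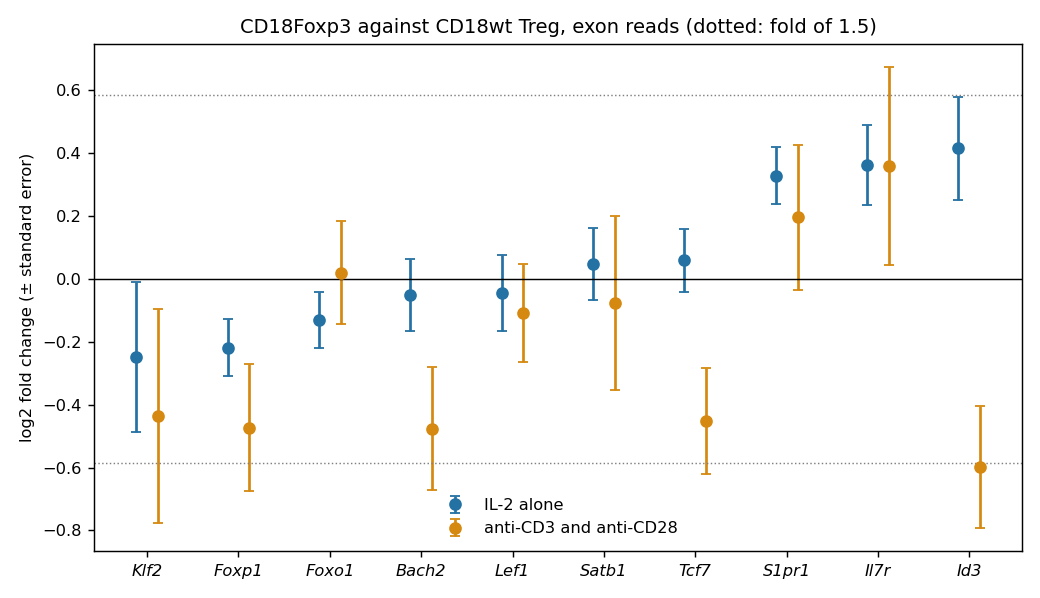
Log2 fold change of exon counts, CD18Foxp3 against CD18wt (y axis, edgeR), of the 10 genes (x axis) in IL-2 alone (blue) and with anti-CD3 and anti-CD28 (orange), with bars for the standard error and dotted lines at a fold of 1.5. Id3 is above 0 in IL-2 alone (0.42) and below 0 after stimulation (-0.60), and no gene was called in either culture.

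The genes whose log2(TPM + 1) over the 12 libraries was most like the mean of the 10 standardized genes were Heca, Klhl24, Abcg3, Hist3h2a and Il6ra, with Pearson r of 0.986, 0.985, 0.979, 0.978 and 0.976. Iqgap3, Adora2b, Mreg, Map3k20 and Slc35d3 were most opposite, from -0.977 to -0.967. The 12 libraries fall into stimulated and unstimulated clusters that all these values share, and 421 of 12626 genes had an r over 0.9 and 1493 an r under -0.9, so the values describe that split. Of the 10 themselves, Tcf7 was closest to their mean (0.988), Foxp1 had an r of 0.09 and Bach2 of -0.77.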

How the data were processed

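Splenic RFP+CD4+ Treg RNA was sequenced as 59-base single reads after poly(A) selection and 15 PCR cycles. The authors mapped the reads to GRCm38 in CLC Genomics Workbench 20.0 and deposited, for each library, raw counts of total and uniquely placed exon and intron reads per gene, and TPM. TPM carried a decimal comma, and values recomputed from the deposited counts and exon lengths were equal to it. Duplicate reads were not marked by molecular identifiers, so counts carry PCR error too. Groups and replicate numbers came from the sample titles. P-values measure the spread between these libraries.

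Exon counts were tested with edgeR 4.0.16 in R 4.3.3 (TMM, filterByExpr with a minimum count of 10, robust quasi-likelihood F-test), with the groups compared in each pairwise fit and all 12 libraries for the interaction. Intron counts were fitted likewise. The SE is the log2 fold change divided by the root of F, and intervals use the quasi-likelihood degrees of freedom. Alternatives were DESeq2 1.42.0, edgeR's likelihood ratio test, other normalization, filters and thresholds, reads placed uniquely, all 12 libraries in 1 fit, a replicate block, limma 3.58.1 with a pseudocount of 1 or 0.1 added to TPM on the log2 scale, and each library left out.

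The 10 genes and all lists were chosen with earlier results of these data known. Named genes were the 10, up to 2 of the largest rises and falls past the threshold in each list, Itgb2, and the 5 most like and 5 most opposite genes. The test of the intron share, its repeat with each library left out, and 2 promoter motifs were added after values or sequences had been seen. Values of some genes that this rule names are not reported here.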

Additional observations from a re-analysis of the deposited data

Results flagged for a closer look

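Id3 was flagged because its genotype difference had opposite directions in the 2 cultures, with every CD18Foxp3 library above every CD18wt library in IL-2 alone and below it after stimulation. The interaction was -1.01 on the log2 scale (SE 0.27), and with an adjusted p of 0.894 in edgeR it did not pass the threshold. In IL-2 alone the nearest libraries of the genotypes were 94.1 and 93.5 TPM.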

How the results depend on the processing

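Of 850 alternative values for single genes, 806 kept their direction and side of the threshold, 10 lost a call, 1 gained one and 33 changed sign. The count of genes called among the 10 was 7 to 8 in CD18wt and 8 to 9 in CD18Foxp3 Treg on stimulation under every alternative, and 0 for genotype in both cultures. The interaction count was 1 with no filter on low counts (Id3), where 31 were called over all genes. On intron reads in CD18wt Treg the count was 4 with upper-quartile normalization, 3 with the replicate block and 3 to 6 with a library left out. Over all genes these intron calls were 257 higher and 483 lower in the main fit. They were 356 and 336 with upper-quartile normalization and 50 and 138 with the replicate block. With limma on log2(TPM + 1) and log2(TPM + 0.1), stimulation in CD18wt gave 0.29 and 0.30 for Foxp1 and 0.0441 and 0.0446 for Id3, both opposite in sign, and the split of all genes moved from 2234 higher and 1779 lower to 3465 and 787 (CD18Foxp3: from 2516 and 2120 to 3760 and 1190). Klf2 in CD18wt was not called with no filter (adjusted p = 0.024 in edgeR). The Il7r interaction, -0.01, turned to 0.0131 with DESeq2, 0.0115 with upper-quartile normalization, 0.0725 with the replicate block, 5e-04 with at least 10 counts in every library, and 0.0292 and 0.0431 with limma. With a library left out, uncalled values crossed 0. For genotype in unstimulated Treg they ranged from -0.44 to 0.012 for Klf2, -0.15 to 0.11 for Lef1, -0.032 to 0.20 for Satb1 and -0.13 to 0.0869 for Bach2. In stimulated Treg they ranged from -0.75 to 0.0876 for Klf2, -0.31 to 0.30 for Satb1 and -0.10 to 0.13 for Foxo1. For the interaction they ranged from -0.51 to 0.32 for Klf2, -0.28 to 0.22 for S1pr1, -0.23 to 0.0408 for Lef1, -0.34 to 0.25 for Satb1 and -0.30 to 0.44 for Il7r. The stimulated minus unstimulated intron share of Foxo1, averaged over the genotypes, ranged from -0.28 to 0.18 percentage points around -0.07 with a library left out, an alternative chosen after the data had been seen. The cause was not tested. Over all genes, calls on stimulation ranged from 3251 to 4777 in CD18wt and from 3591 to 5470 in CD18Foxp3 Treg. Calls for genotype in unstimulated Treg ranged from 0 to 134, in stimulated Treg from 0 to 61, and for the interaction from 0 to 31.

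Same-numbered libraries did not deviate together in each pair (correlation of deviations -0.11 to 0.16 between the CD18wt cultures and 0.07 to 0.21 between the CD18Foxp3 cultures), so the numbers were not taken to pair them. Unstimulated CD18wt replicates 2 and 3 correlated best with stimulated replicates 3 and 2 (0.14 and 0.16). Numbers in the names of the deposited files recur between the cultures of a genotype in the order of the replicate numbers, and may mark shared animals, which the labels do not state. In the CD18Foxp3 cultures every library correlated best with its own number, a hint from the data. The replicate block left 8 and 9 of the 10 genes called on stimulation, as without it. Over all genes it called 2010 higher and 1578 lower in CD18wt and 2608 and 2291 in CD18Foxp3 Treg.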
